A study of Mus musculus with 6 samples.

Results

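AP-1 and related bZIP factors are dimeric transcription factors of the Fos, Jun, Atf, Batf and Maf families. The 10 genes described here, Fos, Fosb, Fosl1, Fosl2, Jun, Junb, Jund, Atf3, Batf and Maff, were taken by symbol through the platform annotation, each with 1 probe set, out of 19505 genes measured. The samples were total RNA of RAW264.7 cells, a mouse macrophage line transformed by a leukaemia virus, cultured for 3 days. There were 3 samples from a modified surface of polyetheretherketone (PEEK), a polymer used in implants, and 3 from the pristine polymer, each on 1 Affymetrix array. The labels do not describe the modification, and both surfaces carried the same line with no other treatment named. Whether the 3 samples of a surface were separate cultures or repeats of one is not stated, so each p-value is set against a spread between samples that may be technical. Arrays are numbered below by the replicate number in their label.

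A bZIP protein holds a basic stretch that contacts DNA and a leucine zipper that pairs it with a partner. Fos proteins need a Jun partner to bind DNA, whereas Jun proteins can also pair among themselves. The dimers read the AP-1 site or the related cyclic AMP response element (CRE). Several of the Fos and Jun genes, Fos itself among them, are known as immediate early genes that respond to kinase signals within minutes. In macrophages AP-1 acts beside NF-kB on inflammatory genes, and Fos is required for the step from macrophage precursor to osteoclast.

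The RefSeq promoter table (GRCm38.p6) held a start site for 9 of the 10 genes, all but Fosl1, with 11 windows in all because Maff has 3. The windows of Junb and Jund held no match to any site searched and are not printed. Windows of Fosb, Batf and Maff are not printed either, though each of these genes had a match. The 250 bases before the start are printed for 4 genes, chosen among those with a match: Fos, Fosl2, Jun and Atf3. They are chr12:85473640-85473889 on the plus strand for Fos, chr5:32136222-32136471 on the plus strand for Fosl2, chr4:95052223-95052472 on the minus strand for Jun and chr1:191183334-191183583 on the minus strand for Atf3. Capitals mark matches, on either strand, to the NF-kB site, the TATA box TATAAA, the first 6 bases of the CRE (TGACGT) and the CRE variant TGACATCA.
Fos: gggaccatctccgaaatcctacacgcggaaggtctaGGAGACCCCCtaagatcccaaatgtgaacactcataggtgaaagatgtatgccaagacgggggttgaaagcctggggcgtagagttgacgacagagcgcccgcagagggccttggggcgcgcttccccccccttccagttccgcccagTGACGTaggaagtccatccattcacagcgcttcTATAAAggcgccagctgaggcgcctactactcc
Fosl2: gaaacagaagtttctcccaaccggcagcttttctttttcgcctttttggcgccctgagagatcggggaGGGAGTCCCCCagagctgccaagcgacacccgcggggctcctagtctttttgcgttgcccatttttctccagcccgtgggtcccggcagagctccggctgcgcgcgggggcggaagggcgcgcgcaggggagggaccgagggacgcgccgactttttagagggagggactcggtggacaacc
Jun: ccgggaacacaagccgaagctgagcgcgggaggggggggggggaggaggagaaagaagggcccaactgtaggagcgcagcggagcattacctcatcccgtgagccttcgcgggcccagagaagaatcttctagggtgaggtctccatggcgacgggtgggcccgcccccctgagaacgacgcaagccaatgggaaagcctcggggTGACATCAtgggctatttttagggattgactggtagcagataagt
Atf3: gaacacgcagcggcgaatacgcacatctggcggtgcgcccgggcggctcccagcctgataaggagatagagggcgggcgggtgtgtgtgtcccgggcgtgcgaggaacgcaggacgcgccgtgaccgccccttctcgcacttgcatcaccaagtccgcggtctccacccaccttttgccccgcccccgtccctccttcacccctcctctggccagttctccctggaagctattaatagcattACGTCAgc

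TGACGT stood in windows of Fos, Atf3, Batf and Maff, which is 4 of 11 windows, and in 6.47% of all 32851 windows of this length. The full CRE TGACGTCA contains TGACGT and was found in 1 Maff window, beside 1.55% of all windows. TGACATCA was found in the Jun window and in 1 of the Maff windows, beside 2.93%. The NF-kB site was matched in windows of Fos, Fosb, Fosl2 and Maff, beside 3.90%, and TATAAA only in that of Fos, beside 12.4%. The AP-1 site TGACTCA and the CArG box, which is read by serum response factor, had no match in the 11 windows and stand in 4.46% and 1.47% of all windows. Bases beyond 250 before the start were not searched, so a site farther upstream would be missed. TGACGT and TGACATCA were searched after the windows had been read. These matches are letters in a window and were not tested for binding.

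Of 19505 genes, 10.4% passed limma's test at an adjusted p under 0.05, 5.24% higher and 5.15% lower on modified PEEK. Among the 10 AP-1 genes 7 passed, with Fos higher and Fosl1, Fosl2, Junb, Jund, Atf3 and Maff lower, while Fosb, Jun and Batf did not pass. Among the 12994 genes with a mean signal above a background of 3.72, to which all 10 belong, the share that passed was 15.0%, with 7.55% higher and 7.43% lower. Maff is among them only through its signal on pristine PEEK, as its 3 modified arrays lay below the background, so its call is not to be read against that share. The median change of the 10 genes was -0.46, beside 0.0088 over all genes, on the log2 scale and modified minus pristine PEEK. The arrays of both surfaces did not overlap for 8 of the 10 genes, a property of 28.8% of all genes. Fewer members passed in most fits that left out 1 array: 7, 5 and 3 when modified array 1, 2 or 3 was missing, and 4, 3 and 4 when pristine array 1, 2 or 3 was missing. Fos, Fosl1 and Fosl2 passed in all 6 of these fits. In RNA from a whole culture, fewer cells of a kind and less RNA per cell cannot be told apart.

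RMA, listed in the submitters' processing notes, gives arrays like distributions. The 24 probe sets for poly-A spike-in controls had a mean of 6.71 ± 0.14 on modified PEEK and 6.96 ± 0.15 on pristine PEEK (SD, n = 3 each). Scaled to these spikes, the median change over all genes was 0.26, the genes that passed were 1575 higher and 290 lower in place of 1023 and 1004, and 2 AP-1 genes passed, Fos higher and Fosl1 lower. The part of the spikes' difference in these results was not tested. Array medians over genes lay between 4.98 and 5.10. All 9 measured macrophage markers of 10 listed, among them Lyz2, Csf1r and Spi1, were at 8.12 or more on every array. Their summed log2 signals were 93.2 to 93.5 on modified PEEK and 94.5 to 94.997 on pristine PEEK, with Adgre1 higher and Itgam, Fcgr1 and Cd53 lower; their part in the results was not tested. Of 15 measured markers of fibroblasts, T cells, B cells and epithelium 0 passed in limma and 1, a fibroblast marker, was lower at an unadjusted p under 0.05, and 6 lay below the background on every array.

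**Figure D1:**
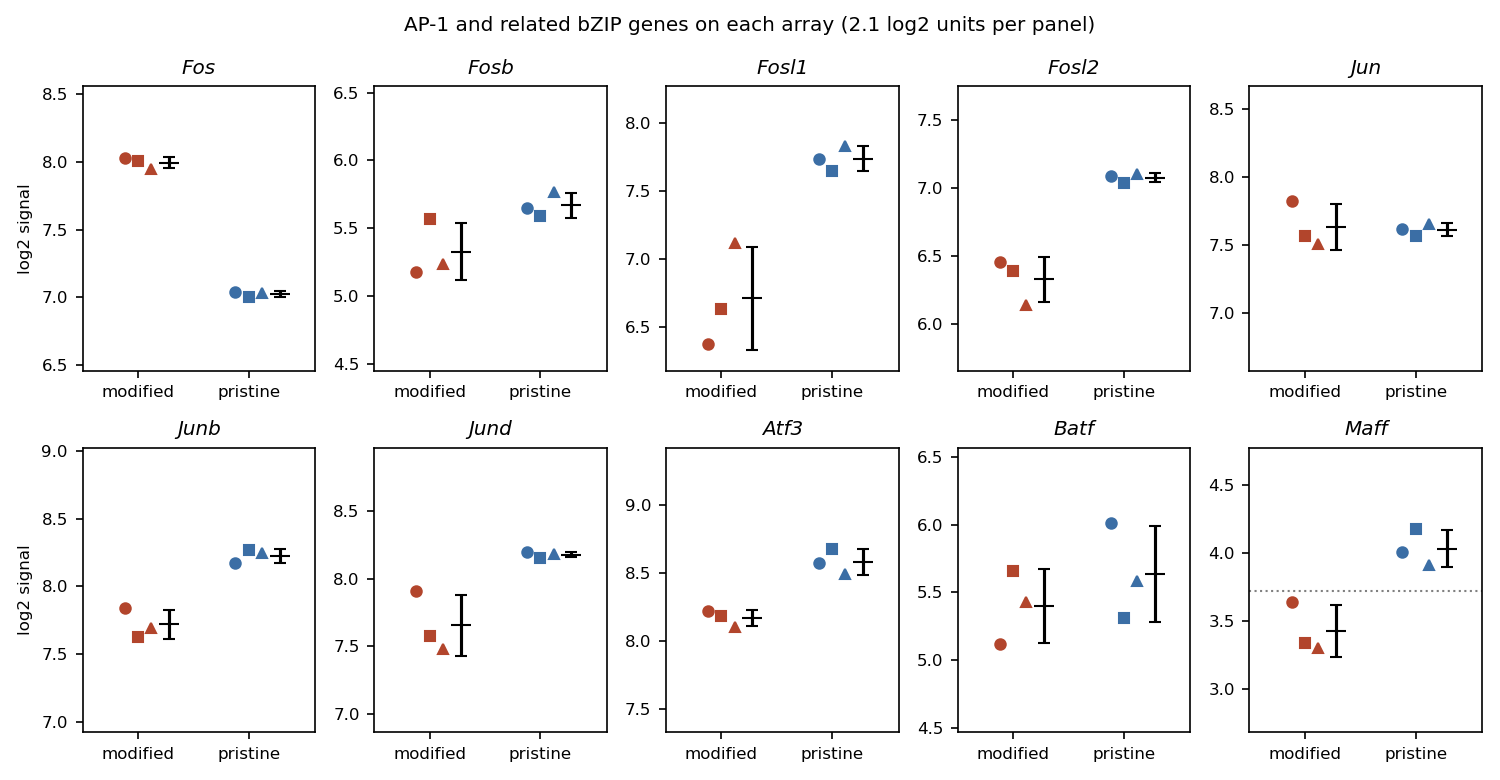
Log2 signal of each of the 10 genes on each array, modified PEEK (red, left) and pristine PEEK (blue, right), with circle, square and triangle for replicates 1, 2 and 3 and the mean ± SD in black. The dotted line in the Maff panel is the background of 3.72; Fos lies near 8 on the modified and near 7 on the pristine surface, and the Jun and Batf groups overlap.

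Fos was the only member that passed as higher. Its log2 signal was 8.03, 8.01 and 7.95 on the modified PEEK arrays and 7.04, 6.999 and 7.03 on the pristine PEEK arrays. The lowest modified array exceeded the highest pristine array by 0.91. The rise was 0.97 ± 0.09 (SE), which is 1.96-fold (adjusted p = 0.000425 by limma, higher on 3 of 3 arrays). Fos had the smallest spread of the 10 genes on each surface, at 0.04 (SD) on modified PEEK and 0.02 on pristine PEEK. Its change stayed between 0.95 and 1.22 under all 17 alternatives, with the highest adjusted p at 0.00608.

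The other 3 Fos-family genes had changes below 0. Fosl1 encodes Fra-1, which lacks the strong activation domain of Fos, and had the largest fall of the 10. It read 6.38, 6.64 and 7.12 on modified PEEK and 7.74, 7.65 and 7.83 on pristine PEEK. All modified arrays were below all pristine arrays, and the modified arrays had the widest spread of any member on either surface (SD 0.38). The change was -1.03 ± 0.18 (SE), 2.04-fold lower (adjusted p = 0.00873 by limma). It lay between -1.23 and -0.86 when 1 array was left out.

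Fosl2, which encodes Fra-2, read 6.45, 6.39 and 6.14 on modified PEEK and 7.09, 7.04 and 7.10 on pristine PEEK. The pristine arrays lay within 0.03 (SD) of each other and all above the modified ones. Fosl2 fell by 0.75 ± 0.11 (SE), 1.68-fold (adjusted p = 0.00358 by limma). It passed in every fit without 1 array, and scaled to the spikes it was -0.50 (adjusted p = 0.0901).

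Fosb, the closest relative of Fos, read 5.18, 5.57 and 5.24 on modified PEEK and 5.65, 5.59 and 5.77 on pristine PEEK. The groups were separated by only 0.02, since modified array 2 lay next to the pristine arrays. The difference of -0.34 (95% interval -0.63 to -0.05) did not pass over all genes (adjusted p = 0.143 by limma). It passed without modified array 2 (-0.46, adjusted p = 0.0405) and with the dimmer 50% of genes left out (adjusted p = 0.0489). Its change was -0.09 when arrays were scaled to the spikes (adjusted p = 0.735).

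**Figure D2:**
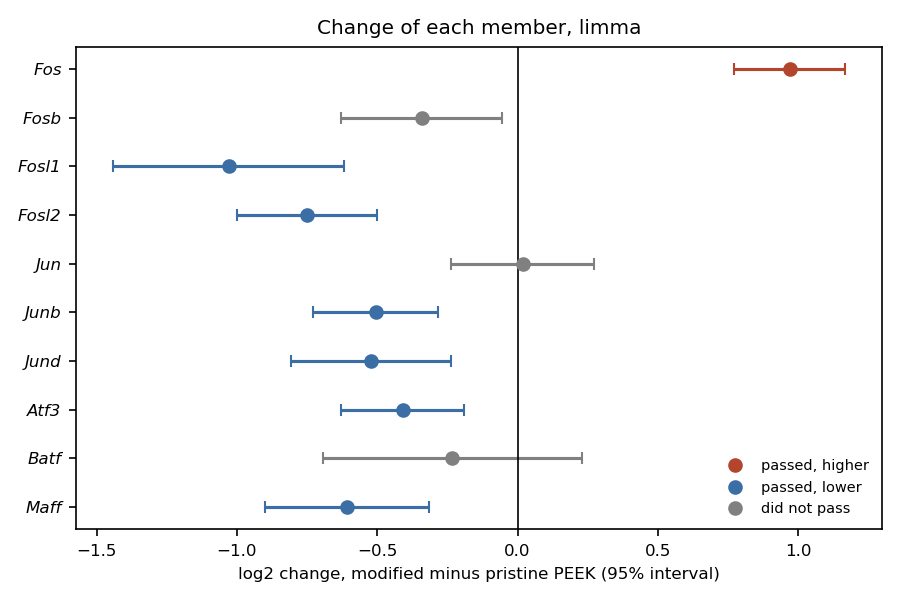
Log2 change of each gene, modified minus pristine PEEK, with its 95% interval from limma; red passed as higher, blue passed as lower and grey did not pass. Fos lies at 0.97, Jun at 0.02 and Fosl1 at -1.03.

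Among the Jun genes, Jun itself showed no detectable change. Jun encodes the partner with the strongest activating role in many cells, and read 7.83, 7.56 and 7.51 on modified PEEK and 7.62, 7.57 and 7.66 on pristine PEEK. Modified array 1 was above, and arrays 2 and 3 were below, all pristine arrays. The difference was 0.02, with a 95% interval of -0.24 to 0.27 (adjusted p = 0.950 by limma). Its sign turned without modified array 1 (-0.08) or pristine array 2 (-0.0055).

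Junb, which can oppose Jun at some promoters, read 7.84, 7.63 and 7.69 on modified PEEK and 8.17, 8.27 and 8.24 on pristine PEEK. Its groups were 0.33 apart. The change was -0.51 ± 0.10 (SE), 1.42-fold lower (adjusted p = 0.0132 by limma). The call was lost without modified array 3 (adjusted p = 0.0528), pristine array 2 (0.0601) or pristine array 3 (0.0622), and scaled to the spikes (-0.26, adjusted p = 0.272).

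Jund, the member usually expressed most steadily in resting cells, read 7.91, 7.58 and 7.48 on modified PEEK and 8.20, 8.15 and 8.18 on pristine PEEK. The pristine arrays were tight (SD 0.02) and the modified arrays were not (SD 0.22). The change was -0.52 ± 0.12 (SE), 1.44-fold lower (adjusted p = 0.0327 by limma). Among the fits without 1 array it passed only without modified array 1, where it was -0.65 (adjusted p = 0.00840). The adjusted p was 0.0895 and 0.110 without modified array 2 and 3, and 0.103, 0.0938 and 0.107 without pristine array 1, 2 and 3. Scaled to the spikes it was -0.27 (adjusted p = 0.288).

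Atf3 encodes a stress-induced factor that restrains inflammatory transcription in macrophages. It read 8.22, 8.19 and 8.11 on modified PEEK and 8.57, 8.68 and 8.49 on pristine PEEK. The groups were 0.27 apart, with similar spread on both surfaces. Atf3 was lower by a change of -0.41 ± 0.10 (SE), 1.33-fold (adjusted p = 0.0307 by limma), the smallest change that passed among the members. It passed without modified array 1 (adjusted p = 0.0467), but not without modified array 2 or 3 (0.0633 and 0.103) or pristine array 1, 2 or 3 (0.0953, 0.128 and 0.0690). Centred on array medians it was -0.40 (adjusted p = 0.0621), and scaled to the spikes -0.16 (adjusted p = 0.50).

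Batf encodes a short factor that pairs with Jun proteins and works with interferon regulatory factors. It read 5.12, 5.66 and 5.43 on modified PEEK and 6.01, 5.31 and 5.58 on pristine PEEK. The groups overlapped, with 1 high pristine array. The difference was -0.23 with a 95% interval of -0.69 to 0.23 (adjusted p = 0.570 by limma), it was -0.04 without pristine array 1, and it turned to 0.01 when scaled to the spikes.

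Maff encodes a small Maf protein, which has the bZIP domain but no activation domain. It read 3.64, 3.34 and 3.30 on modified PEEK and 4.01, 4.18 and 3.91 on pristine PEEK. All 3 modified arrays lay below the background of 3.72 and all 3 pristine arrays above it. The measured difference was -0.61 ± 0.13 (SE; adjusted p = 0.0194 by limma), and because 1 side is below background the gene was at least 1.24-fold lower. The call was lost without modified array 2 or 3 (adjusted p = 0.0585 and 0.0800) or pristine array 1 or 2 (0.0616 and 0.0778), and scaled to the spikes (0.183).

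The spread between arrays was larger on modified than on pristine PEEK for 8 of the 10 genes, all but Atf3 and Batf, beside 62.8% of all genes. Modified array 1 was the highest of the modified arrays for 7 genes, the 3 Jun genes among them, and the lowest for Fosb, Fosl1 and Batf.

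The difference between Fos and each other member within an array is the same when a constant is added to all values of that array, as in the scaling to spikes or medians, but not under normalization of whole distributions such as RMA. The pairs with Fos were formed after the values had been seen. Between the surfaces this difference rose by 0.95 on the log2 scale for Jun, the smallest, and by 1.999 for Fosl1, the largest. It rose by 1.31 for Fosb, 1.72 for Fosl2, 1.48 for Junb, 1.49 for Jund, 1.38 for Atf3, 1.20 for Batf and 1.58 for Maff. For all 9 partners the arrays of the surfaces did not overlap (exact permutation test, two-sided p = 0.1 for each, the smallest that 3 against 3 arrays can give). The 9 values share the Fos signal and are not independent. Fos alone was separated by 0.91, with SDs of 0.04 and 0.02, so Fos minus a little-changed gene would mostly be separated too. The count of 9 is therefore no result about these partners.

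**Figure D3:**
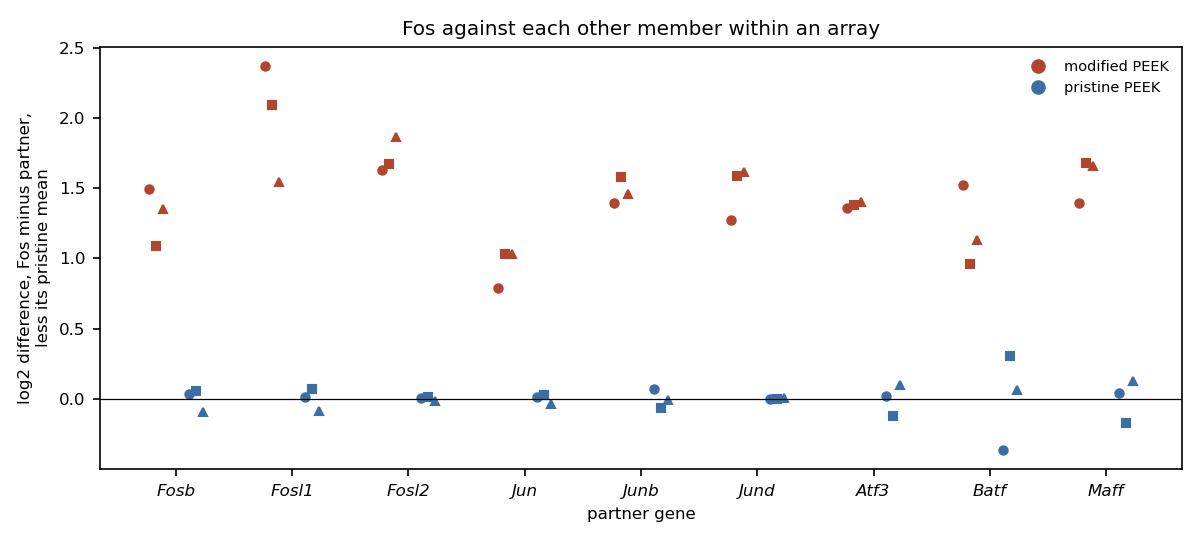
Log2 signal of Fos minus that of each other member on the same array, less the mean of that difference on pristine PEEK; red is modified and blue is pristine PEEK, with circle, square and triangle for replicates 1, 2 and 3. All modified arrays lie above all pristine arrays for each partner, by a mean of 0.95 for Jun to 1.999 for Fosl1.

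Fos and Batf are near neighbours on chromosome 12 in the RefSeq gene table (GRCm38.p6). Between them lies 1 protein-coding gene, Jdp2, itself a bZIP repressor that pairs with Jun proteins. Jdp2 had 7.58 ± 0.18 on modified PEEK and 7.86 ± 0.06 on pristine PEEK (SD, n = 3 each) and did not pass (-0.28, adjusted p = 0.197 by limma). Tmed10, the nearest protein-coding gene on the other side of Fos, had 10.04 ± 0.04 and 9.98 ± 0.05 (adjusted p = 0.758 by limma). Of Tmed10, Fos, Jdp2 and Batf, Fos was the one that passed.

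The genes with array patterns most like that of Fosl1, the member that passed with the largest change, were Osgin2, Pla1a, Spink5, Bank1 and Perm1. Their values, each less its mean over the 6 arrays, differed from those of Fosl1 by a root mean square of 0.05, 0.13, 0.16, 0.16 and 0.17 log2 units. On modified PEEK the mean of Perm1 was 3.56, below the background of 3.72, and that of Bank1 was 3.76, close to it. Osgin2 read 7.07 ± 0.38 on modified PEEK and 8.14 ± 0.09 on pristine PEEK (SD, n = 3 each), with a spread on the modified arrays as wide as that of Fosl1.

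Among 34 measured other bZIP factors, 2 passed as higher and 6 as lower, beside 5.24% and 5.15% of all genes. The number higher is near that share, so it is no result about the list. The median change was -0.19, beside 0.0088 over all genes. Ddit3, which encodes the stress factor CHOP, fell by 1.13 ± 0.15 (SE), 2.19-fold (adjusted p = 0.00216 by limma). Nfe2l1, a regulator of proteasome genes, fell by 0.62, and Nfil3, a repressor linked to circadian and immune genes, by 0.62. Dbp, a circadian activator, was 1.51-fold higher. Atf4, the main factor of the integrated stress response, had 10.24 ± 0.08 on modified PEEK and 10.58 ± 0.03 on pristine PEEK (adjusted p = 0.0516 by limma), and Xbp1, a factor of the unfolded protein response, 10.24 ± 0.08 and 10.19 ± 0.04; neither passed. Scaled to the spikes, 1 of the 34 was lower, and Nfe2l1 and Nfil3 lost their calls (adjusted p = 0.141 and 0.162). Leaving out 1 array gave 3 lower for modified array 2 or 3, 3 for pristine array 2 and 2 for pristine array 3. It gave 0 higher for pristine array 1 or 3, where Dbp had adjusted p = 0.0541 and 0.0530, and 1 higher for each other array. Nfil3 did not pass without modified array 2 or 3 (adjusted p = 0.0558 and 0.0748) or pristine array 2 or 3 (0.0816 and 0.0810).

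Kinases that carry signals to AP-1, listed together with the scaffold gene Mapk8ip3, moved in both directions. Of 23 measured genes of this list, 3 rose and 3 fell, beside 5.24% higher and 5.15% lower of all genes. The median change was 0.00152, and Mapk8ip3 did not pass. Map2k6, which activates p38 kinases, rose by 0.94 ± 0.17 (SE), 1.92-fold, and Map3k1, upstream of the Jun kinases, was 1.49-fold higher (adjusted p = 0.0111 and 0.00603 by limma). Mapk11, a p38 kinase, and Map3k5, a stress kinase also named ASK1, were 1.51-fold and 1.498-fold lower. Mapk14, another p38 kinase with a higher signal than Mapk11, was 1.29-fold higher (adjusted p = 0.0349 by limma). It had 8.61 ± 0.05 on modified PEEK and 8.24 ± 0.05 on pristine PEEK, beside 5.49 ± 0.05 and 6.08 ± 0.13 for Mapk11. Map2k5 (8.62 ± 0.08 on modified PEEK and 8.60 ± 0.06 on pristine PEEK) and Araf (8.44 ± 0.12 and 8.72 ± 0.06) did not pass. Scaled to the spikes 0 of the 23 were lower, and Mapk11 and Map3k5 had adjusted p = 0.210 and 0.179. Without modified array 3, 1 was higher and Map2k6 did not pass (adjusted p = 0.0528). Without pristine array 2 or 3, 1 was lower and Map3k5 did not pass (adjusted p = 0.0621 and 0.0541). Serum response factor and its partners control Fos in other settings. Of 6 measured genes 0 passed in limma, beside 10.4% of all genes, and 1 was lower at an unadjusted p under 0.05. Elk4 had 8.39 ± 0.15 on modified PEEK and 8.34 ± 0.08 on pristine PEEK. Mrtfb had 8.17 ± 0.08 and 8.38 ± 0.04. Without modified array 1, 1 of the 6 was lower.

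**Figure D4:**
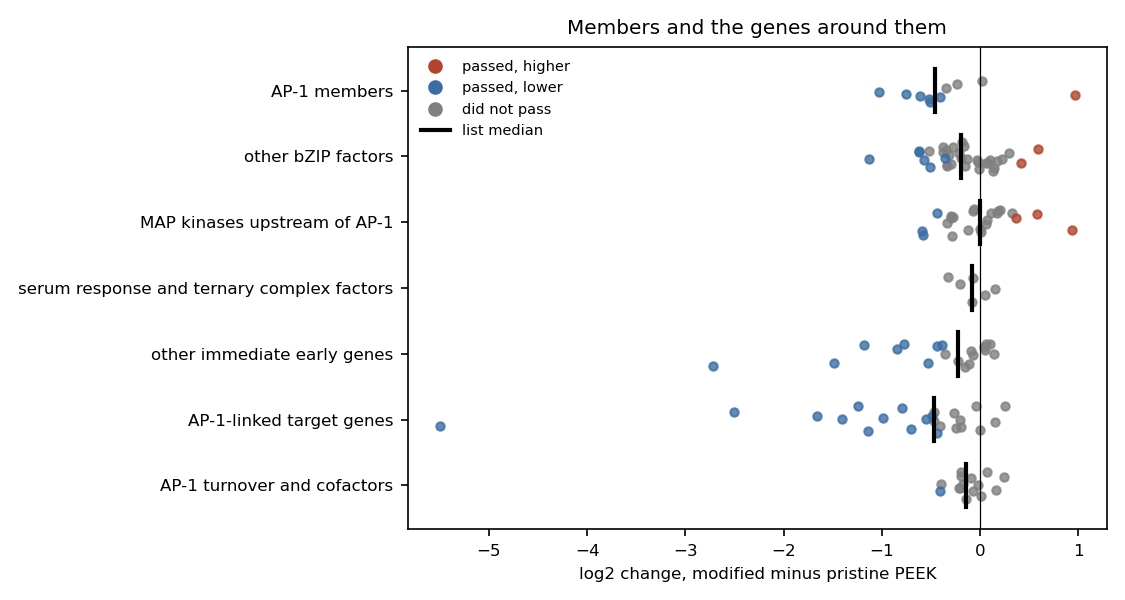
Log2 change, modified minus pristine PEEK, of every measured gene in 7 lists, with red for higher, blue for lower and grey for genes that did not pass, and a black bar at each list median. The medians run from -0.47 for AP-1-linked targets to 0.00152 for the kinases, and Fos at 0.97 stands apart from the other members.

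Other immediate early genes, which like Fos respond within minutes to many stimuli, were lower where they passed. Of 19 measured, 8 fell and 0 rose in limma, beside 5.15% lower and 5.24% higher of all genes. At an unadjusted p under 0.05, 0 were higher and 9 lower, and the median change was -0.22. This list too was chosen with earlier results of these data known. Plk2, a kinase of the stress response, read 4.70 ± 0.44 on modified PEEK and 7.43 ± 0.06 on pristine PEEK (SD, n = 3 each). Myc was 2.81-fold lower, Ier3, a survival gene, 2.27-fold lower, and Dusp1, which encodes a phosphatase that switches off p38 and Jun kinases, 1.80-fold lower. Egr1, commonly induced together with Fos, had 7.94 ± 0.15 on modified PEEK and 8.01 ± 0.05 on pristine PEEK and did not pass (adjusted p = 0.781 by limma; 0.18 when scaled to the spikes, in place of -0.07). Dusp6, a feedback inhibitor of ERK, had 7.17 ± 0.09 and 7.53 ± 0.19 (adjusted p = 0.112). The number lower was 4 when scaled to the spikes and 5 without modified array 3 or any 1 of the pristine arrays 1, 2 and 3.

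Genes known as AP-1 targets in various cells also fell where they passed. Of 23 measured, 12 fell and 0 rose in limma, beside 5.15% lower and 5.24% higher of all genes. At an unadjusted p under 0.05, 0 were higher and 15 lower. The median change was -0.47, and 8 lay below the background on both surfaces. The gene at the median was Il2, which is among these 8, with means of 2.91 on modified PEEK and 3.38 on pristine PEEK. The list was chosen with earlier results of these data known, so its counts are no independent evidence. Mmp12, macrophage elastase, read 5.02 ± 0.18 on modified PEEK and 10.53 ± 0.16 on pristine PEEK (SD, n = 3 each). Ptgs2, cyclooxygenase 2, was 5.68-fold lower, Hmox1, haem oxygenase 1, 3.15-fold lower and Acp5, the tartrate-resistant phosphatase of osteoclasts, 2.65-fold lower. Cd44, an adhesion receptor, had 10.19 ± 0.07 on modified PEEK and 10.39 ± 0.07 on pristine PEEK, and the growth factor gene Hbegf 4.68 ± 0.26 and 4.42 ± 0.20; neither passed. Scaled to the spikes, 6 of the 23 were lower. Most of these genes have other regulators too, and no binding was measured. Of 15 genes of AP-1 turnover and cofactors 1 fell, a share near the 5.15% of all genes that were lower, so the count is no result about the list. That gene, Gsk3b, a kinase that marks Jun for destruction, was 1.33-fold lower (adjusted p = 0.0240 by limma). It did not pass in any fit without 1 array (adjusted p = 0.0538, 0.0532 and 0.0617 without modified array 1, 2 and 3, and 0.0800, 0.0637 and 0.115 without pristine array 1, 2 and 3), nor when centred on array medians (0.0513) or scaled to the spikes (0.488). Crebbp (9.42 ± 0.07 on modified PEEK and 9.62 ± 0.05 on pristine PEEK) and Csnk2a1 (9.17 ± 0.05 and 9.24 ± 0.01) did not pass.

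**Figure D5:**
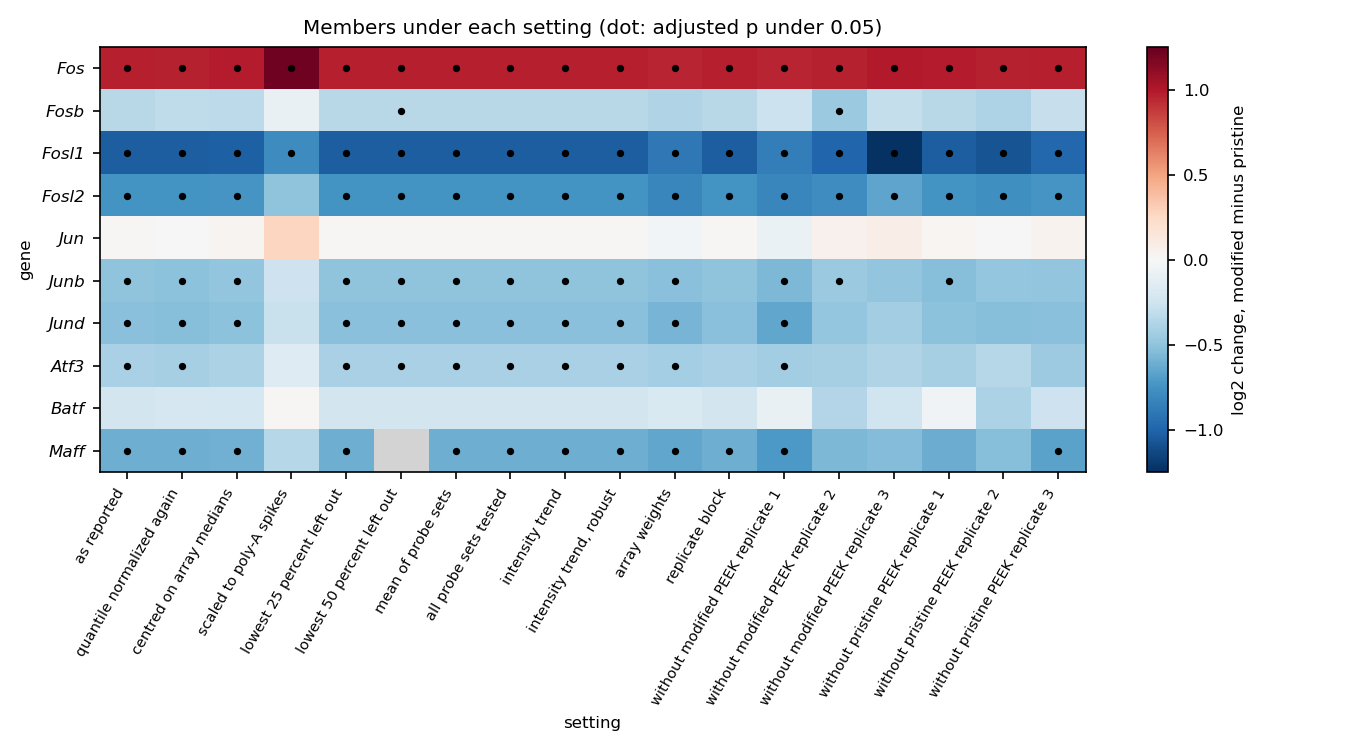
Log2 change of each member, modified minus pristine PEEK, as colour, for the reported setting and each of 17 alternatives; a dot marks an adjusted p under 0.05 and grey a gene left out by the filter. The rows of Fos and Fosl1 have a dot in every column, Jun and Batf in none.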

How the data were processed

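The values are the authors' deposited log2 signals, 1 per probe set, with a range of 0.941 to 12.4. RMA, which corrects background, equalizes array distributions and summarises probes, is listed per the submitters' processing notes, with neither version nor role. A genome build was not found in the labels. After 6923 control features were set aside from 29129 rows, 19572 probe sets name 1 gene, and the probe set with the highest mean over the 6 arrays was kept, leaving 19505 genes. The members, gene lists and tests were chosen with earlier results of these data known. Surfaces were compared over all genes by lmFit and eBayes in limma 3.58.1 under R 4.3.3 (no trend, two-sided, 4 residual and 4.09 prior degrees of freedom), with Benjamini-Hochberg adjustment over all genes and no filter; changes are modified minus pristine PEEK. The exact permutation test used SciPy 1.17.1.

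Genes of 1410 olfactory and vomeronasal receptors set the background: 95% of their means lie below 3.72. Named were all members, per list at most 4 genes that passed, by size of change, and 2 of the highest signal among those that missed, and the 5 genes nearest to the member with the largest change, leaving out provisional Gm and Rik names. Jdp2, Tmed10, Mapk14 and the genes of the closing observations were chosen after their values were seen. The fit was tested on simulated data. Alternatives were other scalings, filters, probe set rules, variance models and array weights, a replicate block, and leaving out each array. With 3 arrays a surface, the precision of each value is limited.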

Additional observations from a re-analysis of the deposited data

How the results depend on the processing

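The number of all genes that passed was 3305 when the variance followed intensity, 3282 when that fit was robust too and 1142 to 1863 without 1 array. Of the members, 2 passed when arrays were scaled to the poly-A spikes, and 3 to 7 without 1 array. Of the list genes 35 passed, against 16 when scaled to the spikes and 21 to 35 without 1 array. No pairing by replicate number was seen, though 3 arrays a surface cannot exclude it. Same-numbered arrays deviated from their group means with correlations of -0.17, -0.16 and 0.07 over genes, and 2 of 6 arrays correlated best with their own number. With the replicate block 1268 genes, 4 members (Fos, Fosl1, Fosl2 and Maff) and 23 list genes passed. Some changes turned sign in some settings, none past the threshold. Jun was -0.0332 with array weights and -0.0788 to 0.0823 without 1 array, Map2k5 -0.0338 to 0.0481 and Elk4 -0.0388 to 0.0987 without 1 array. Scaled to the spikes, Batf was 0.0145, Mrtfb 0.0431, Egr1 0.18, Cd44 0.0486, Crebbp 0.0472 and Csnk2a1 0.18. In the reported fit these genes were at -0.23, -0.20, -0.07, -0.20, -0.20 and -0.07, in the same order. With an intensity trend 13 other bZIP factors and 8 kinases were lower. Maff was not tested with the dimmer 50% of genes left out. Signal near the background limits Maff, and 2 of the 34 other bZIP factors and 8 of the 23 target genes lay below it on both surfaces.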

Other observations

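Dbp, Tef and Hlf encode the PAR family of bZIP factors, which drives circadian output genes; they are described here after their values were seen, and differences between them were not tested. Dbp read 8.58, 8.57 and 8.34 on modified PEEK and 7.79, 8.02 and 7.89 on pristine PEEK, a rise of 0.59 ± 0.11 (SE; adjusted p = 0.0121 by limma); leaving out pristine array 1 or 3 ended the call (adjusted p = 0.0541 and 0.0530). Tef had 4.57 ± 0.07 on modified PEEK and 4.93 ± 0.06 on pristine PEEK (SD, n = 3 each; adjusted p = 0.0442), and its call was lost whichever array was left out (adjusted p = 0.0598 to 0.154). Tef was at -0.11 when arrays were scaled to the spikes (adjusted p = 0.653). Hlf lay below the background on both surfaces. The repressor gene Nfil3, which competes with them for the same sites, fell by 0.62.

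The small Maf genes related to Maff, Mafg and Mafk, had 6.42 ± 0.29 and 5.79 ± 0.03 on modified PEEK, and 6.94 ± 0.12 and 6.13 ± 0.12 on pristine PEEK (SD, n = 3 each). Their arrays did not overlap between surfaces, a property of 28.8% of all genes. Neither passed (adjusted p = 0.0743 and 0.0712 by limma), though Mafg did without modified array 1 (adjusted p = 0.0162).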
